A study of Homo sapiens with 6 samples.

Results

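Expression of 10 genes of the NF-kB system was followed in the human colorectal adenocarcinoma line DLD-1 after transfection with control siRNA or with siRNA against AHR. The genes were chosen by role from a list of symbols: 4 subunits of the transcription factor (NFKB1, NFKB2, RELA, RELB), 4 inhibitors (NFKBIA, NFKBIB, NFKBIE, TNFAIP3) and the 2 cIAP genes (BIRC2, BIRC3). They are 10 of the 60483 genes counted by RNA-seq, and all 10 passed the filter on low counts that left 14900 genes to test. The 10 were chosen with earlier results of these data known. In the count tables they are ENSG00000109320.10 (NFKB1, chromosome 4), ENSG00000077150.16 (NFKB2, chromosome 10), ENSG00000173039.17 (RELA, chromosome 11) and ENSG00000104856.12 (RELB, chromosome 19). The inhibitors are ENSG00000100906.9 (NFKBIA, chromosome 14), ENSG00000104825.15 (NFKBIB, chromosome 19), ENSG00000146232.13 (NFKBIE, chromosome 6) and ENSG00000118503.13 (TNFAIP3, chromosome 6), and the cIAP genes ENSG00000110330.7 (BIRC2) and ENSG00000023445.12 (BIRC3) are both on chromosome 11. Both groups, of 3 libraries each, came from the same line grown in RPMI-1640 medium with fetal bovine serum at the same passage range, and the labels name no difference but the siRNA. The sequence and number of the siRNAs and the time from transfection to harvest were not stated. Nothing in the labels ties the libraries of a group to separate cultures. The p-values therefore reflect spread among libraries that may be technical replicates.

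NF-kB is a family of dimeric transcription factors that wait in the cytoplasm, bound by inhibitor (IkB) proteins. In the canonical branch, receptors for tumour necrosis factor, interleukins or bacterial products activate a kinase complex that marks the IkB proteins for destruction, and dimers that contain RELA enter the nucleus. In the noncanonical branch the kinase NIK, the product of MAP3K14, accumulates and NFKB2 protein is processed into a subunit that pairs with RELB. The genes of several inhibitors and of BIRC3 are themselves induced by NF-kB, which closes feedback loops. The cIAP proteins are ubiquitin ligases that help canonical signalling at the tumour necrosis factor receptor and, together with TRAF2 and TRAF3, keep NIK low. The product of AHR, the aryl hydrocarbon receptor, is itself a transcription factor switched on by small ligands, and is known to form complexes with RELA and RELB. In intestinal epithelium NF-kB is best known for driving chemokine and survival genes.

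The stretches just upstream of 4 members are shown because each carries a match to the kB consensus, the decamer that NF-kB dimers bind, while the levels of all these genes differed between the groups. Each sequence is the 250 bases before the annotated start in RefSeq on GRCh38.p14, written 5′ to 3′ along the gene's strand, with the kB matches in capitals. They lie at chr4:102501109-102501358 (plus strand) for NFKB1, chr14:35404750-35404999 (minus strand) for NFKBIA, chr6:137867009-137867258 (plus strand) for TNFAIP3 and chr11:102317234-102317483 (plus strand) for BIRC3.
NFKB1: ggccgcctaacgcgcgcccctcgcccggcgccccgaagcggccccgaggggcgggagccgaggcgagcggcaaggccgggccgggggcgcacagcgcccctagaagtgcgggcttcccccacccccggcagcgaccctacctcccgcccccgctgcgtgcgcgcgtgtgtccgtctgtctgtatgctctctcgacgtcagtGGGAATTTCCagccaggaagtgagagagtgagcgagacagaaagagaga
NFKBIA: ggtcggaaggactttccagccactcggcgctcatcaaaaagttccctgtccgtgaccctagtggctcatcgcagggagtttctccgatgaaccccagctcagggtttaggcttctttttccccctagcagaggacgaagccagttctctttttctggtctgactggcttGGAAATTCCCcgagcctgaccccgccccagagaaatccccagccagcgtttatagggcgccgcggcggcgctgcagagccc
TNFAIP3: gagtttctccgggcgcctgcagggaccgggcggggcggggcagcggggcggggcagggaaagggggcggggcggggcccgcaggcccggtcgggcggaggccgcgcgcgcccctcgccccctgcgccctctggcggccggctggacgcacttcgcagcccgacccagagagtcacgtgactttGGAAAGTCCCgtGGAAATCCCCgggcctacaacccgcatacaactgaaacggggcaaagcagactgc
BIRC3: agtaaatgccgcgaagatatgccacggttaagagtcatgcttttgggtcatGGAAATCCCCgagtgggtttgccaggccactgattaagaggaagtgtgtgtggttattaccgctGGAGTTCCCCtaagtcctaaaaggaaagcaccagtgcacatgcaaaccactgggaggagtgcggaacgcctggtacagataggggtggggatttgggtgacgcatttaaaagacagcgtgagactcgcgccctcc

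BIRC3 held 2 matches, at 199 to 190 and at 135 to 126 bases before its start, and TNFAIP3 held 2 that lie closer to its start and to each other, at 67 to 58 and at 55 to 46 bases. The single match of NFKB1 lay 49 to 40 bases before its start, and that of NFKBIA 81 to 72 bases before its start. The RefSeq promoter table held 8 of the 10 members, all but RELB and NFKBIE, and 4 of these 8 windows held at least 1 kB match on either strand. The windows of NFKB2, RELA, NFKBIB and BIRC2 held none. Where several promoters of a gene were listed, only the first was searched. The same search found a match in 9.57% of all 27303 promoters of this length in the table and in 11.7% of the 10732 promoters of tested genes. The core of the xenobiotic response element bound by AHR (TNGCGTG, either strand) was found in 0 of the 8 windows, against 4.53% of all promoters and 6.16% of those of tested genes. A match only says that these letters are in the window, and its absence says nothing of whether a factor binds.

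The libraries held 11567736 to 15037145 counts, with the 3 lower totals in the AHR siRNA group. Levels are given in CPM, the counts of a gene per 1000000 counts of its library after TMM scaling, which sets the bulk of genes equal between libraries. AHR itself was at 117, 144 and 132 CPM in control siRNA libraries and at 95.8, 87.4 and 95 CPM in AHR siRNA libraries. Its level was 70.8% of control (log2 fold change -0.50, SE 0.08, edgeR quasi-likelihood adjusted p 1.98e-05), so AHR mRNA was partly reduced. Control siRNA replicate 1 stood somewhat apart from the other 2 control libraries: the chi-square per degree of freedom over genes was 8.54 and 7.37 against them and 1.54 between them, while AHR siRNA libraries gave 3.30 to 5.43 among themselves. The epithelial markers EPCAM, CDH1, KRT8, KRT18, KRT19, KRT20 and CDX2 were all detected, and their summed level was 11624 to 13143 CPM in control siRNA and 7997 to 8320 CPM in AHR siRNA, with 5 of the 7 called lower and 0 higher. Markers of leukocytes summed to 4.77 to 7.88 CPM in control siRNA and 4.06 to 4.70 CPM in AHR siRNA. Of these 12 genes only 2 were tested, and 1 was called lower (CD14). Markers of fibroblasts summed to 2.23 to 3.15 and 2.13 to 3.31 CPM, with 2 of 7 tested, 1 lower (COL1A1) and 1 higher (PDGFRB). Markers of endothelium summed to 1.31 to 1.95 and 2.21 to 2.48 CPM, with 1 of 5 tested, which was higher (VWF). All these sums were under 8 CPM, and MS4A1, DCN, LUM, PDGFRA and KDR were at 0 throughout. The part of any marker list in the results below was not tested.

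All 10 members were lower with AHR siRNA, from BIRC3, which was left at 10.0% of its control level, to RELA, which kept 83.7%. NFKBIA fell to 38.6% and RELB to 46.1% of control, and NFKB2, NFKBIE, TNFAIP3 and NFKB1 to 50.4% to 57.0%. BIRC2, NFKBIB and RELA kept 74.4% to 83.7%. Genes were called at an adjusted p under 0.05 (edgeR's quasi-likelihood test, Benjamini-Hochberg over 14900 genes). The background was high: 60.1% of all tested genes were called, 30.1% lower and 30.0% higher. In each of the 10 members every AHR siRNA library lay below every control siRNA library, and such a separation in either direction was seen in 63.7% of tested genes. The median log2 fold change was -0.94 over the 10 members (52.0% of control) and 0.01 over all tested genes. RNA was taken from whole cultures, so fewer cells that express a gene and less RNA per cell cannot be told apart.

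**Figure D1:**
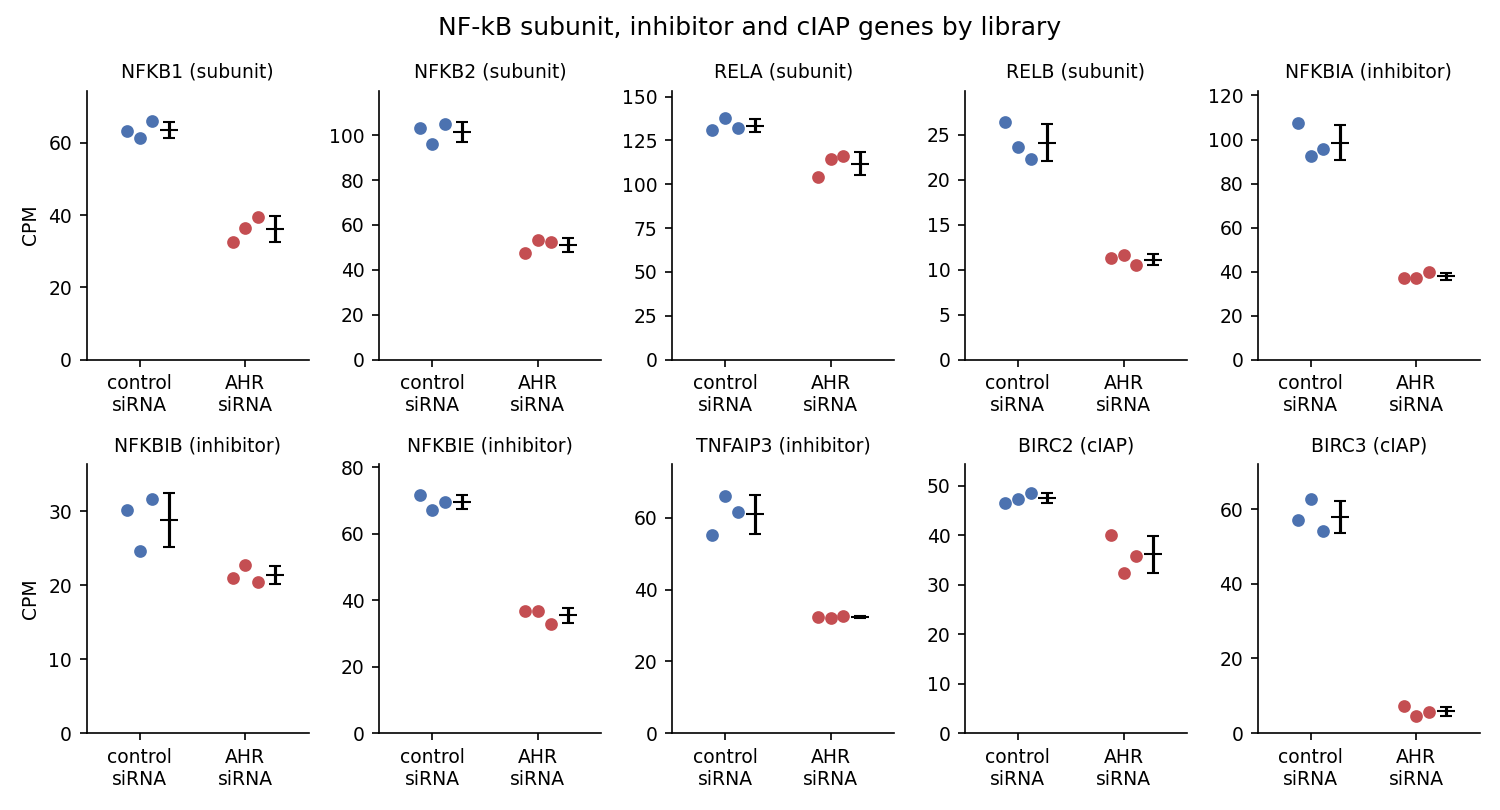
Level of each of the 10 members in CPM (vertical axes, each from 0) in the 3 control siRNA and 3 AHR siRNA libraries (points), with the mean and SD of each group beside them. In every panel the 3 AHR siRNA points lie below the 3 control siRNA points. The fall relative to control is largest in BIRC3 (57.9 against 5.83 CPM on average) and smallest in RELA.

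Among the subunits, RELA, which carries the strongest transactivation domain of the canonical dimer, was at 131, 138 and 132 CPM in control siRNA libraries and at 104, 115 and 116 CPM in AHR siRNA libraries. The groups did not overlap but lay close. The log2 fold change was -0.26 (95% interval -0.40 to -0.12, adjusted p 0.00293), and 31.3% of all tested genes had a lower one. With library totals in place of TMM the RELA value was -0.11 and was no longer called (adjusted p 0.181, edgeR). That scaling moved the median of all genes up by 0.148 and turned the split of calls over all genes from 4479 lower and 4474 higher to 3205 lower and 5885 higher.

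NFKB1, whose precursor is processed into the DNA-binding partner of RELA, was at 63.3, 61.5 and 66.1 CPM with control siRNA and at 32.6, 36.3 and 39.6 CPM with AHR siRNA. All 3 control values were well above the highest AHR siRNA value. Its log2 fold change was -0.81 (95% interval -0.98 to -0.64, adjusted p 6.65e-08). NFKB2 gives the matching subunit of the noncanonical branch. It was at 103, 96.2 and 105 CPM with control siRNA and at 47.3, 53.5 and 52.5 CPM with AHR siRNA, a change of -0.99 (95% interval -1.14 to -0.83, adjusted p 1.17e-09). No AHR siRNA library came near the controls. RELB, the noncanonical partner of NFKB2, was at 26.4, 23.7 and 22.3 CPM with control siRNA and at 11.3, 11.6 and 10.5 CPM with AHR siRNA. RELB changed most of the 4 by the estimate, -1.12 (95% interval -1.34 to -0.90, adjusted p 3.18e-08), but its interval overlapped those of NFKB2 and NFKB1. The interval of RELA overlapped none of the other 3.

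Among the inhibitors, NFKBIA, which encodes IkB alpha and is the fast feedback inhibitor of the canonical branch, was at 108, 92.6 and 95.5 CPM with control siRNA and at 36.9, 37.2 and 39.8 CPM with AHR siRNA. Control siRNA replicate 1 was the highest library, and the AHR siRNA libraries lay within 3 CPM of each other. The log2 fold change was -1.37 (95% interval -1.54 to -1.21, adjusted p 3.13e-11), a fall exceeded by 2.11% of tested genes. NFKBIE, which encodes IkB epsilon, a slower feedback inhibitor, was at 71.6, 67.2 and 69.6 CPM and then at 36.6, 36.7 and 32.9 CPM. These values changed by -0.97 (95% interval -1.13 to -0.81, adjusted p 2.18e-09).

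NFKBIB encodes IkB beta, whose gene responds less to NF-kB. It was at 30.1, 24.6 and 31.6 CPM with control siRNA and at 21.0, 22.7 and 20.4 CPM with AHR siRNA, so that its lowest control library and highest AHR siRNA library nearly met. The change was -0.43 (95% interval -0.64 to -0.21, adjusted p 0.00126). TNFAIP3, a ubiquitin-editing enzyme that ends signalling above the kinase complex, was at 55.2, 66.1 and 61.5 CPM with control siRNA. With AHR siRNA it was at 32.3, 32.1 and 32.7 CPM, the smallest SD of any member in either group (0.28), and the change was -0.91 (95% interval -1.08 to -0.74, adjusted p 1.40e-08). Of the 4 inhibitors, the interval of NFKBIA lay below those of the other 3 and the interval of NFKBIB above them. The median log2 fold change was -0.94 over the 4 inhibitors and -0.90 over the 4 subunits, and the ranges of the roles overlapped.

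The cIAP genes lie next to each other on chromosome 11 and differed most in their response. BIRC3, which encodes cIAP2, had 759, 907 and 703 counts in control siRNA libraries and 87, 64 and 76 counts in AHR siRNA libraries. These counts correspond to 56.9, 62.6 and 54.1 CPM and to 7.21, 4.71 and 5.58 CPM. The highest AHR siRNA library was far below the lowest control library. BIRC3 fell by 3.32 on the log2 scale (95% interval -3.57 to -3.07, SE 0.12, adjusted p 9.95e-14), or 9.99-fold by the edgeR model, and ranked 6 among the 14900 genes by size of fall.

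BIRC2, which encodes cIAP1 and is usually expressed without induction, was at 46.5, 47.3 and 48.6 CPM with control siRNA and at 40, 32.4 and 35.8 CPM with AHR siRNA. The control libraries lay within 3 CPM of each other, and all AHR siRNA libraries were lower. The change was -0.40 (95% interval -0.57 to -0.22, adjusted p 0.000439), which 22.8% of tested genes exceeded in fall. The other genes at this locus did not move together. YAP1, a transcriptional coactivator on the far side of BIRC3, was higher (179 ± 15.1 to 249 ± 14.6 CPM, log2 fold change 0.47), and TMEM123, on the far side of BIRC2, was lower (441 ± 10.1 to 216 ± 8.0 CPM, log2 fold change -1.03). YAP1 and TMEM123 are the nearest genes on either side of the pair, but they were named after their values were seen. CEP126, farther out on the side of YAP1, was also called higher (log2 fold change 0.62). Only 11 of the 7648 stretches of 50 bases in BIRC3 transcripts also occur in BIRC2 (0.144%).

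**Figure D2:**
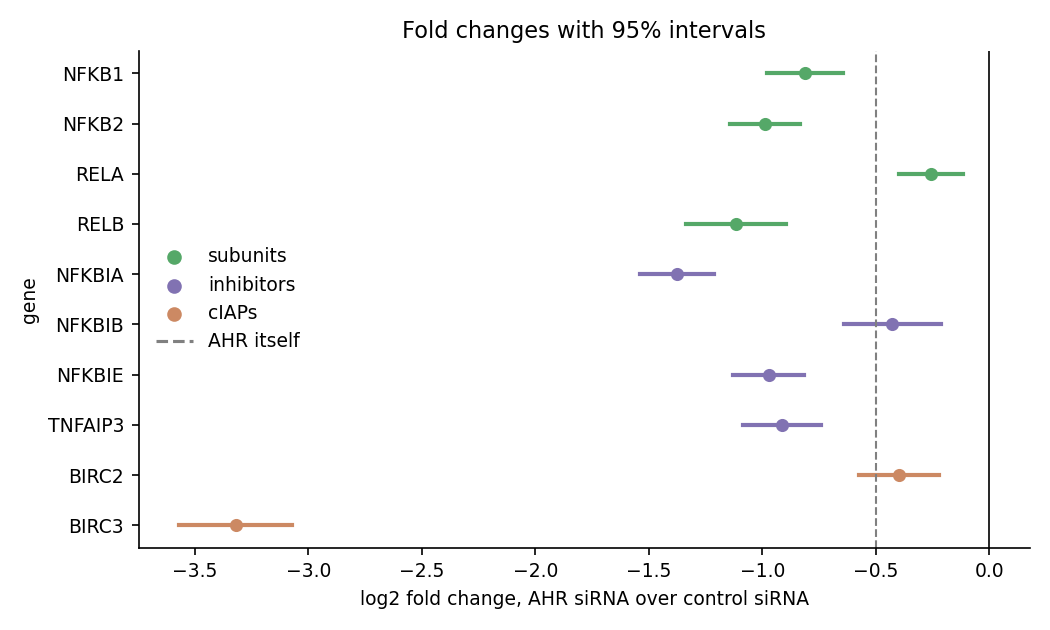
Log2 fold change of each member, AHR siRNA over control siRNA (horizontal axis), with its 95% interval, coloured by role, and the value of AHR itself as a dashed line. All 10 intervals lie below 0, from BIRC3 at -3.32 to RELA at -0.26, and the intervals of subunits and inhibitors overlap.

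When at least a 1.5-fold change was tested for (edgeR's glmTreat), 7 of the 10 members were called, and RELA, NFKBIB and BIRC2 were not. The share of all tested genes called at this minimum fold was not counted, so the 7 cannot be set against a background. Without control siRNA replicate 1, the library that stood apart, all 10 were still called lower. Exons of other genes overlap 3 members on the opposite strand, and it was not stated whether the counting used strand. SIRT2 shares 40 bases with NFKBIB (1.72% of its exon length) and had at most 281 counts in a library, where NFKBIB had 253 to 411. The antisense gene AL357060.1 shares 95 bases with TNFAIP3 (1.88%) and had at most 22 counts. AP001362.2 shares 9 bases with RELA but had 0 counts. Stretches of 50 bases shared with any other transcript made up at most 2.32% of any member, in NFKBIB.

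To compare levels between genes, CPM was divided by the exon length in kilobases (GENCODE 29, union of exons). The order between genes rests on this choice of length, and no other was tried. With control siRNA the order began with NFKBIA at 41.5 ± 3.4 CPM per kb (SD, n = 3), followed by NFKBIE at 26.9 ± 0.84, RELA at 24.4 ± 0.70 and NFKB2 at 22.6 ± 1.0. NFKBIB (12.4 ± 1.6), TNFAIP3 (12.1 ± 1.1), BIRC2 (10.5 ± 0.23) and NFKB1 (10.2 ± 0.37) formed a middle group, and RELB (7.95 ± 0.69) and BIRC3 (7.70 ± 0.58) came last. Neighbours in this order whose libraries overlapped were NFKBIB with TNFAIP3, BIRC2 with NFKB1, and RELB with BIRC3.

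With AHR siRNA the order began with RELA at 20.4 ± 1.2 CPM per kb, then NFKBIA at 16.0 ± 0.67, NFKBIE at 13.7 ± 0.84, NFKB2 at 11.4 ± 0.74 and NFKBIB at 9.19 ± 0.52. BIRC2 (7.96 ± 0.84), TNFAIP3 (6.41 ± 0.055), NFKB1 (5.78 ± 0.56) and RELB (3.67 ± 0.19) followed, and BIRC3 was last at 0.776 ± 0.17. Here only the libraries of NFKBIB and BIRC2 overlapped as neighbours. RELA thus moved from the third place to the first and NFKBIA from the first to the second, while BIRC3 moved from a level like that of RELB to the lowest by a wide margin.

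**Figure D3:**
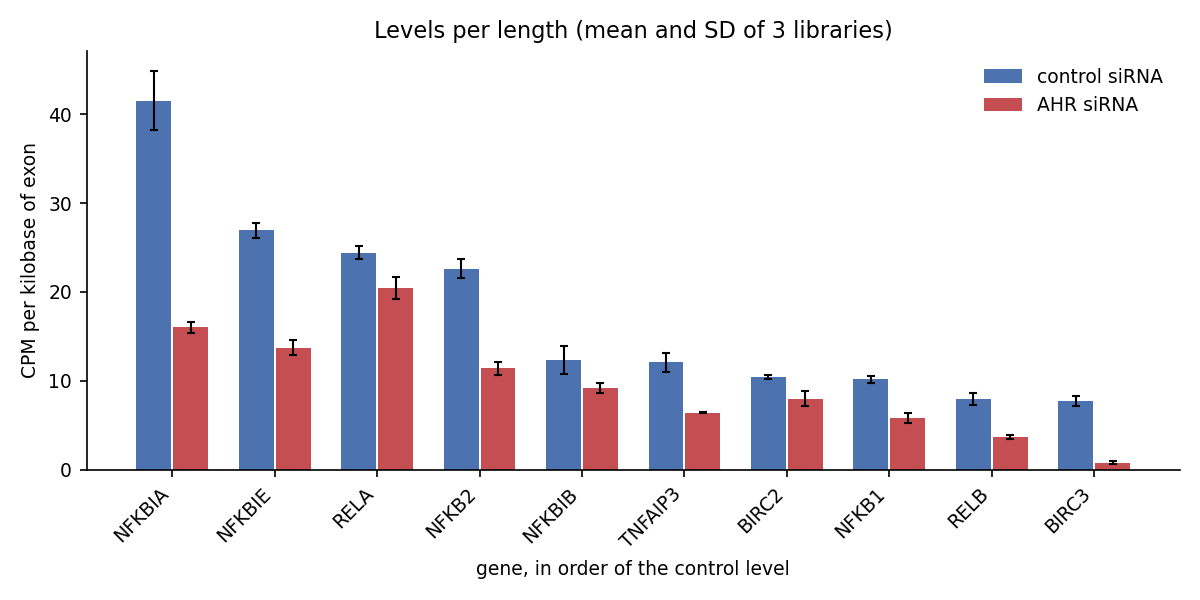
Mean level of each member in CPM per kilobase of exon (vertical axis, from 0), with the SD of 3 libraries, in order of the control level. NFKBIA leads with control siRNA (41.5) and RELA with AHR siRNA (20.4), and the AHR siRNA bar of BIRC3 is the shortest (0.776).

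Count ratios of member pairs within a library do not depend on how libraries are scaled. They are not corrected for length, so only their change between groups is read. The ratio of BIRC3 to BIRC2 counts was 1.22, 1.32 and 1.11 in control siRNA libraries and 0.180, 0.145 and 0.156 in AHR siRNA libraries, a difference of -2.93 on the log2 scale. The ratio of NFKBIA to RELA was 0.823, 0.672 and 0.725 and then 0.355, 0.325 and 0.342 (log2 difference -1.11). In every AHR siRNA library both ratios were below all 3 control values.

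RELB to RELA went from 0.202, 0.172 and 0.169 to 0.108, 0.101 and 0.0903 (log2 difference -0.86). NFKBIE to RELA differed by -0.72, TNFAIP3 to RELA by -0.65 and NFKB2 to NFKB1 by -0.17 on the log2 scale, all without overlap between the groups. The last of these is small: 1.63, 1.56 and 1.59 against 1.45, 1.47 and 1.33. NFKBIB to RELA overlapped between the groups (0.230, 0.179 and 0.240 against 0.201, 0.198 and 0.176, log2 difference -0.16). With 3 libraries a group, the two-sided exact permutation test cannot give a p below 0.1. It gave 0.1 for 6 of the 7 ratios and 0.3 for NFKBIB to RELA, or 0.117 and 0.3 after Benjamini-Hochberg adjustment over the 7, so none passed 0.05.

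**Figure D4:**
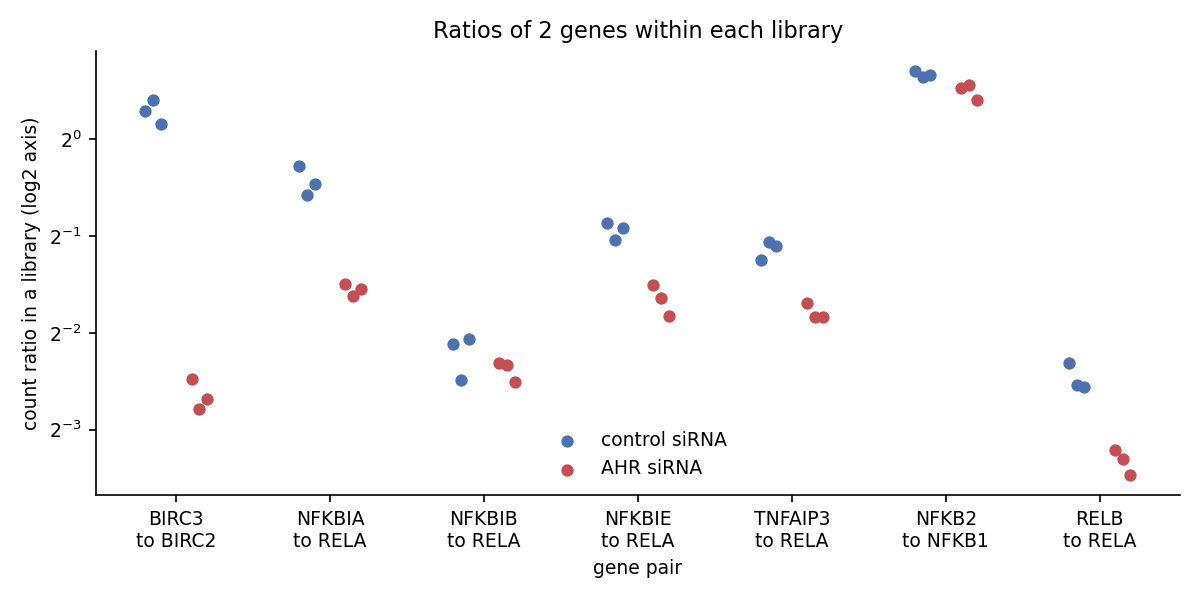
Count ratio of 2 members within each library (vertical axis, log2 scale) for 7 pairs, with control siRNA and AHR siRNA libraries as points. The groups are apart for 6 pairs, most for BIRC3 to BIRC2 (1.11 to 1.32 against 0.145 to 0.180), and overlap for NFKBIB to RELA.

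The remaining genes of the pathway were read from lists by role. Their counts stand against 30.1% called lower and 30.0% called higher among all tested genes. REL, the subunit not among the 10 members, varied between control libraries (11, 22 and 25.7 CPM) and was at 11.8, 12.4 and 15.9 CPM with AHR siRNA. The groups overlapped, since control siRNA replicate 1 was the lowest of all 6 libraries. REL was called lower (-0.54, SE 0.20, edgeR adjusted p 0.0266), but the call was lost in 8 of 14 alternatives. These include DESeq2 (adjusted p 0.214) and leaving out control siRNA replicate 2 or 3 (0.0629 and 0.188) or AHR siRNA replicate 1 or 2 (0.116 each). The 3 tested nuclear IkB genes were all lower. NFKBIZ, a coactivator for secondary response genes, went from 90.2 ± 7.1 to 52.5 ± 2.9 CPM (-0.78), and BCL3, which binds the NFKB1 and NFKB2 products in the nucleus, from 22.7 ± 0.79 to 13.2 ± 1.8 CPM (-0.78). NFKBID was called at -0.37 (adjusted p 0.0108, edgeR) but not without AHR siRNA replicate 2 (-0.28, adjusted p 0.0710) or with library totals alone (-0.22, adjusted p 0.109).

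Of 14 ligands that start NF-kB signalling, 6 were tested, with 2 lower, 3 higher and 1 not called, and a median log2 fold change of 0.14. LTB, the third higher one, and TNFSF10, the one not called, were at 0.88 and -0.37. TNF, LTA, IL1A and IL1B were not tested, with at most 13 counts in any library. IL18, an epithelial cytokine, was lower (56.7 ± 7.6 to 45.1 ± 3.5 CPM, -0.33), but with library totals alone it was at -0.18 and not called (adjusted p 0.0863, edgeR). IL17C, an epithelial interleukin, was higher (1.83 ± 0.65 to 3.40 ± 0.39 CPM, 0.90). TNFSF15 (-0.26) and TNFSF12 (0.53), the ligand of TNFRSF12A, were called with adjusted p 0.0184 and 0.0172 in edgeR. The TNFSF12 groups overlapped, at 7.13, 5.52 and 6.69 CPM with control siRNA and at 9.86, 11.5 and 6.54 CPM with AHR siRNA. TNFSF15 lost its call in edgeR with library totals alone (adjusted p 0.326) or upper-quartile factors (0.0863), and without control siRNA replicate 3 (0.0736) or AHR siRNA replicate 2 (0.139). TNFSF12 lost its call without control siRNA replicate 2 (0.0697), AHR siRNA replicate 1 (0.0636) or AHR siRNA replicate 2 (0.161).

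Receptors split, with 9 of 18 tested genes lower, 5 higher and 4 not called (median -0.28). TNFRSF12A, a receptor that feeds the noncanonical branch, was at 107, 99.9 and 106 CPM with control siRNA and at 31.6, 35.9 and 33.1 CPM with AHR siRNA. Every AHR siRNA library was far below the controls, and the log2 fold change was -1.63 (SE 0.07, adjusted p 2.43e-12). TNFRSF9, a costimulatory receptor, fell by 1.53 (20 ± 2.1 to 6.91 ± 0.83 CPM) and TNFRSF1B, a receptor for tumour necrosis factor, by 1.03 (16.5 ± 3.4 to 8.13 ± 1.4 CPM). In the other direction, the death receptor gene TNFRSF10B rose from 162 ± 2.3 to 244 ± 1.6 CPM (0.60), and LTBR, the lymphotoxin receptor of the noncanonical branch, from 126 ± 1.3 to 165 ± 8.2 CPM (0.40). TLR5, the flagellin receptor, was called higher (1.55 ± 0.13 to 2.67 ± 0.56 CPM, 0.80), but not without AHR siRNA replicate 2 (adjusted p 0.0687).

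Adaptors and ubiquitin ligases between receptors and kinases were lower in 12 of 25 tested genes, higher in 6 and not called in 7 (median -0.16). MYD88, the adaptor of Toll-like and interleukin receptors, went from 82.3 ± 2.3 to 39.5 ± 1.3 CPM (-1.06), and IRAK2, a kinase recruited by it, from 28.2 ± 1.6 to 14.4 ± 0.85 CPM (-0.97). MALT1, a paracaspase, fell by 0.93 (91.0 ± 4.1 to 47.7 ± 0.26 CPM) and TAB2, which ties a kinase to ubiquitin chains, by 0.70 (95.9 ± 5.8 to 59.0 ± 3.2 CPM). TRADD, the adaptor of tumour necrosis factor receptor signalling, rose by 0.52 (13.5 ± 0.89 to 19.4 ± 0.72 CPM). TRAF2 and TRAF3, which hold NIK and the cIAPs together, were both called lower, at -0.38 and -0.28.

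Of 9 kinase genes, 5 were lower, 2 higher and 2 not called (median -0.26). MAP3K14, which encodes NIK, was at 40.5, 46.2 and 45.6 CPM with control siRNA and at 14.2, 15.3 and 16.7 CPM with AHR siRNA. The groups were far apart, and the level fell to 34.9% of control (log2 fold change -1.52, SE 0.09, adjusted p 8.92e-11). CHUK, the kinase that acts below NIK, fell by 0.59 (52.3 ± 2.8 to 34.6 ± 0.75 CPM) and TBK1, a related kinase, by 0.32 (61.8 ± 1.8 to 49.6 ± 3.1 CPM). With library totals alone TBK1 was at -0.17 and not called (adjusted p 0.0512, edgeR). IKBKG, the regulatory subunit of the kinase complex, was higher (4.52 ± 0.20 to 7.54 ± 0.45 CPM, 0.74), though it has a near-identical pseudogene and its count is uncertain. The other higher gene was IKBKB, the catalytic subunit that marks IkB proteins (0.22), and 1 kinase gene in place of 2 was called higher without control siRNA replicate 3 or AHR siRNA replicate 2.

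Of the 5 genes for the ligase that marks IkB proteins for degradation, 2 were lower, 1 higher and 2 not called. The 40% that were lower are only 2 genes, and 30.1% of all tested genes were lower. FBXW11, a substrate receptor of the ligase, was higher (46.3 ± 2.9 to 60.6 ± 2.3 CPM, 0.39), and RBX1, its ring-finger subunit, was lower (30.9 ± 5.1 to 22.7 ± 2.2 CPM, -0.44). CUL1, its scaffold, was called at -0.17 (adjusted p 0.0460, edgeR), but the call was lost in 9 of 14 alternatives. In edgeR it was lost without control siRNA replicate 1 or 3 (0.0724 and 0.0630) or AHR siRNA replicate 2 or 3 (0.168 and 0.173). It was also lost with library totals alone (0.795), upper-quartile factors (0.277), no filter (0.0552) or a filter of 1 CPM (0.0546), and in DESeq2 (adjusted p 0.0574). Among 14 tested deubiquitinases and other brakes outside the members, 5 were lower, 2 higher and 7 not called (median -0.10). The 35.7% that were lower are near the 30.1% of all tested genes. Its lower genes include ITCH, a ligase that works with TNFAIP3 (78.2 ± 6.4 to 40.9 ± 4.4 CPM, -0.94), and ZC3H12A, an RNase of inflammatory mRNAs (81.6 ± 1.9 to 53.2 ± 3.0 CPM, -0.62). RNF11 fell by 0.45 and OTULIN, which removes linear ubiquitin chains, by 0.43, whereas N4BP1 rose by 0.36 (53.8 ± 2.3 to 68.7 ± 3.6 CPM).

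Of 6 tested genes of the IAP family and its antagonists outside the members, 3 were lower, 0 higher and 3 not called (median -0.14). BIRC5, or survivin, which acts in cell division, was at 126, 103 and 117 CPM with control siRNA and at 48.0, 40.9 and 47.4 CPM with AHR siRNA, and fell by 1.34. XIAP, the direct caspase inhibitor, was not called (39.1 ± 3.9 and 42.4 ± 0.95 CPM, log2 fold change 0.11, edgeR adjusted p 0.255). BIRC6 (-0.22, adjusted p 0.0329, edgeR) and the antagonist HTRA2 (-0.26, adjusted p 0.0471, edgeR) were called with overlapping groups. BIRC6 lost its call without control siRNA replicate 2 or 3 (0.0821 and 0.175) or AHR siRNA replicate 1 or 2 (0.0950 and 0.167). HTRA2 lost it without control siRNA replicate 1 or 3 (0.198 and 0.0745) or AHR siRNA replicate 1 or 3 (0.0884 and 0.180). With library totals alone neither BIRC6 (0.527) nor HTRA2 (0.381) was called, nor with upper-quartile factors (0.161 and 0.167). HTRA2 lost its call in 9 of 14 alternatives, also with DESeq2 (adjusted p 0.0733), limma-voom (0.0596) and the filter of 1 CPM (edgeR, 0.0543).

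Genes known as NF-kB targets outside the 10 members moved mostly downward: 21 of 26 tested (80.8%) were lower, 2 higher and 3 not called, against 30.1% lower among all genes. Their median log2 fold change was -0.94, the same to 2 decimals as that of the members. Both lists were chosen with earlier results of these data known, so neither the share nor the median is independent support. CXCL8, the neutrophil chemokine, was at 33.0% of control (58.1 ± 6.8 to 19.2 ± 0.90 CPM, -1.60). LCN2, an iron-sequestering antibacterial protein, went from 948 ± 89.0 to 341 ± 13.5 CPM (-1.47) and IL32, a cytokine, from 34.8 ± 3.0 to 8.28 ± 1.1 CPM (-2.07). SAA1, an acute-phase protein, was lower too (106 ± 10.7 to 28.2 ± 4.0 CPM, -1.92), but it has a near-identical paralogue, SAA2, and how reads were shared between them is not known. CCL20, an epithelial chemokine named after its value was seen, fell by 3.60 (12.8 ± 1.8 to 1.05 ± 0.30 CPM).

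Of the 26 tested targets, 2 were called higher. PTGS2, which encodes the inducible cyclooxygenase, was at 2.40, 3.8 and 2.85 CPM with control siRNA and at 10, 7.58 and 8.22 CPM with AHR siRNA, all above the controls, and rose by 1.5 (SE 0.19, adjusted p 1.27e-06). BCL2L1, a survival gene, rose by 0.20, and TNFAIP2, CFLAR and PLAU were not called. These last 4 genes complete the counts and were named after their values were seen.

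**Figure D5:**
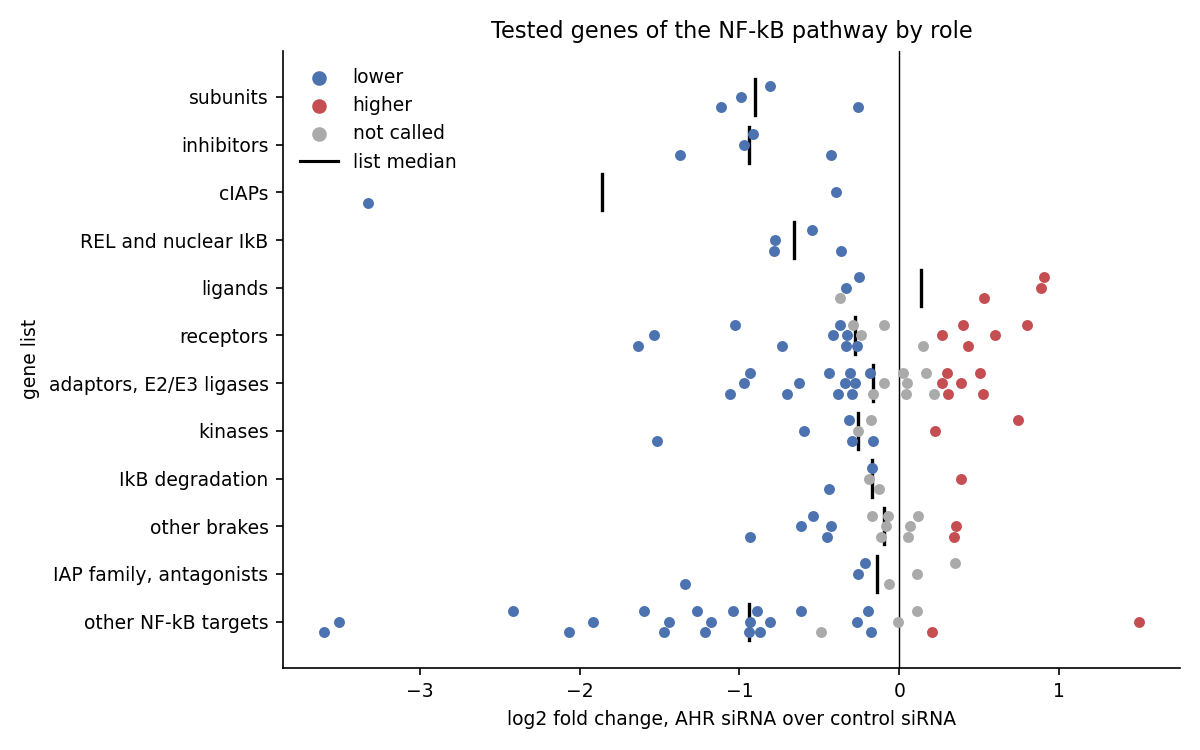
Log2 fold change, AHR siRNA over control siRNA (horizontal axis), of every tested gene of the NF-kB pathway, by role, coloured by whether it was called lower, higher or not called, with the median of each list as a bar. Members and other NF-kB targets lie mostly left of 0 (medians -0.90, -0.94, -1.86 and -0.94), while ligands, receptors, adaptors and brakes lie on both sides.

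The genes whose level over the 6 libraries was most like that of BIRC3 were KCTD9 (Pearson r 0.9998 of log2 CPM), USP1 (0.9998) and KLK10 (0.9995), of 10993 genes compared. The 6 points share their libraries and fall into the 2 groups, and 506 of the genes had an r over 0.99. The 3 genes fell by less than BIRC3, with log2 fold changes of -1.42, -1.11 and -1.20.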

How the data were processed

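RNA-seq of 6 libraries, 3 for each siRNA, was analysed from the table of counts that the authors deposited for each library, a whole number for each Ensembl ID. The submitters' processing notes list TopHat2 2.0.11, TopHat, HTSeq, hg19 and GRCh37 without saying what each was used for. Some IDs belong to annotations of a later build, which leaves the build of the counts uncertain. Strandedness and the treatment of multi-mapped reads were not stated. All 37 mitochondrial genes were at 0.

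Sample titles gave group and replicate number. Of 60483 IDs, 56321 were in the gene name table and 41124 had a current symbol there. Counts were tested in R 4.3.3 with edgeR 4.0.16: filterByExpr, TMM scaling, glmQLFit and glmQLFTest with the group as the only term, and Benjamini-Hochberg adjustment over all 14900 tested genes. CPM values are relative to the TMM-adjusted sum over tested genes, and each SD is over 3 libraries. The biological coefficient of variation was 0.066. Percentages of control and folds were taken from the log2 fold change of the model, not from the ratio of mean CPM. The SE of a log2 fold change is its size over the root of the F value. The code was tested on simulated data. Alternatives were other scalings and filters, a replicate block, DESeq2 1.42.0, limma-voom (limma 3.58.1), glmTreat, a stricter threshold and leaving out each library.

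Named genes were the 10 members, AHR, REL and, in each further list, up to 4 called genes of at least 1 CPM with the smallest p and the called gene that moved most against the majority. The 3 genes most like BIRC3 were taken from those with at least 5 CPM. TRAF2, TRAF3, XIAP, LTB, LTBR, TNFSF10, IKBKB, CCL20, BCL2L1, TNFAIP2, CFLAR, PLAU, the neighbours of BIRC3, the marker genes and the untested genes were named outside this rule, after their values were seen. The members and lists were chosen with earlier results of these data known. Promoters came from RefSeq and exon lengths from GENCODE 29.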

Additional observations from a re-analysis of the deposited data

How the results depend on the processing

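All 10 members stayed lower in sign in every alternative that was run, and 10 were called lower in each except 2. Library totals alone gave 9, since RELA at -0.11 was not called (adjusted p 0.181, edgeR). A minimum fold of 1.5 gave 7, with no count over all genes to set beside it. BIRC3 ranged from -3.49 to -3.17, NFKBIA from -1.43 to -1.23 and RELA from -0.29 to -0.11 on the log2 scale. With the replicate block 10 members were called lower and BIRC3 was at -3.32. Deviations of libraries with the same number correlated at 0.193, -0.0405 and 0.154, and those with different numbers at -0.263 to 0.160. With 3 libraries a group, these values cannot decide whether the numbers pair the libraries. The block raised the calls over all genes from 4479 lower and 4474 higher to 4810 and 4788.

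Library totals alone moved the median of all genes by 0.148 (3205 lower, 5885 higher) and changed several list counts by over 1.5 times. REL and the nuclear IkB genes went from 4 to 2 lower, ligands from 2 to 0, receptors from 9 to 5, adaptors from 12 to 7, kinases from 5 to 2, the degradation machinery from 2 to 1 and the other IAP genes from 3 to 1, while brakes went from 2 to 4 and the other IAP genes from 0 to 1 higher. Upper-quartile factors left 1 lower in each of the ligands, degradation and other IAP lists. DESeq2 and the filter of 1 CPM each left 1 lower in the degradation list. Leaving out 1 library moved counts by 1 or 2 genes: to 2 lower for REL and the nuclear IkB genes, 1 lower for ligands, degradation and other IAP genes, 3 higher for receptors, and 1 higher for ligands, kinases, brakes and targets. Over the genes and lists outside the members, 44 values lost their call against 502 that did not, 30 counts moved by over 1.5 times against 250 that did not, and none reversed. The call of RELA, the member that changed least, depended on the scaling, since it was lost with library totals alone.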
